A study of Caenorhabditis elegans with 2 samples.

Results

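The small heat shock protein genes described here are hsp-16.1, hsp-16.11, hsp-16.2, hsp-16.41, hsp-16.48, hsp-16.49, hsp-12.3, hsp-12.6, hsp-25 and hsp-43 of the nematode Caenorhabditis elegans. They are 10 of the 19973 nuclear protein-coding genes of the annotation and were taken by name. For each gene, every binding peak was collected whose summit, the base of highest enrichment, lay within 1000 bp of an annotated transcript 5′ end. Of the genes, 6 belong to the heat-inducible hsp-16 class and 4 are other family members.

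The data are chromatin immunoprecipitation sequencing (ChIP-seq) of MDT-29, a subunit of the Mediator complex, in whole larvae. Both samples are biological replicates of a single group. They come from strain RJP4521, whose allele the labels give as rp133 (Degron::GFP::mt-29) III, an insertion at mdt-29 made by CRISPR. Its tagged protein, named elsewhere in the labels as an eGFP fusion, was precipitated with an anti-GFP antibody from L4 larvae aged 48 hours. The animals had been synchronised by starving newly hatched L1 larvae after bleaching, and the labels of both samples name no heat treatment. Every cell type of the animal is mixed in such a sample, so a weak peak cannot be assigned to few cells or to low occupancy in many. With 1 group of 2 samples there is no contrast to test, and all values are descriptions.

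Small heat shock proteins are ATP-independent chaperones that share an alpha-crystallin domain and hold unfolding proteins in a soluble form. The hsp-16 genes lie in divergent pairs that share the DNA between their 5′ ends. In response to heat they are switched on by heat shock factor HSF-1, which binds heat shock elements made of alternating GAA and TTC units. Mediator is the large complex that bridges activators bound to DNA and RNA polymerase II. Among the other members, hsp-12.3 and hsp-12.6 encode small proteins that are not known as heat-inducible, hsp-12.6 is a classic target of the insulin-regulated factor DAF-16, hsp-25 encodes a family member found in muscle, and hsp-43 a larger one.

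The DNA between the divergent genes is shown because the results turn on it. The single-copy stretch lies between hsp-16.2 (minus strand) and hsp-16.41 (plus strand), and the duplicated stretch between hsp-16.1 (minus strand) and hsp-16.48 (plus strand). Both are plus-strand sequence from RefSeq, build WBcel235 (ce11), and capitals mark the heat shock elements. The hsp-16.2/hsp-16.41 stretch is chrV:1804989-1805181 and the hsp-16.1/hsp-16.48 stretch chrV:9087840-9088062.
hsp-16.2/hsp-16.41: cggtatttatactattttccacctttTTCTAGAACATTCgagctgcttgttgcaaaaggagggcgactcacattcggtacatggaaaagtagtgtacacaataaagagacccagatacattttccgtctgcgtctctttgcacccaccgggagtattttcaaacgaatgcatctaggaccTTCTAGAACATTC
hsp-16.1/hsp-16.48: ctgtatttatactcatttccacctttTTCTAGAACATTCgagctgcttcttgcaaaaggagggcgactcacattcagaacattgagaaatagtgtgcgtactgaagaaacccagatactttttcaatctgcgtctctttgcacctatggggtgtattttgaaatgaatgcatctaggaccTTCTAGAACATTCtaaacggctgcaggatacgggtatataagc
Over the 193 aligned bases, without gaps, the stretches were identical at 169 positions (87.6%). Each held 2 heat shock elements of 3 units, whose starts lay 154 bp apart in both loci. The hsp-16.11/hsp-16.49 copy, chrV:9089835-9090057 on the minus strand, was identical to the hsp-16.1/hsp-16.48 stretch at all 223 positions, so it is not printed again.

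In the main list, which the authors made from both samples and thresholded, 6 of the 10 genes had a peak (hsp-16.1, hsp-16.2, hsp-16.41, hsp-16.48, hsp-16.49 and hsp-12.3), where 5.11% of all protein-coding genes had one. Of the hsp-16 class, 5 of 6 genes had a peak, and of the others 1 of 4. Because neighbours share peaks, these 6 genes rest on 4 peaks. A single one of the 4, that of hsp-16.2 and hsp-16.41, had its summit in the DNA upstream of its genes. The remaining 3 had their summits beyond the 3′ ends of the genes counted.

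The peak between hsp-16.2 and hsp-16.41 was the highest of any member. It spanned chrV:1805013-1805232 with its summit at 1805142, which lay 185 bp upstream of the hsp-16.2 5′ end and 36 bp upstream of that of hsp-16.41. The signal, the authors' measure of peak strength, was 134 in replicate 1 and 215 in replicate 2, a mean of 175 ± 56.8 (SD, n = 2). Replicate 2 was the higher by a ratio of 1.60, and the scaling of signal between the samples is not known, so the SD includes any difference in scale. In the main list the signal was 360 and ranked 48 of 1705 peaks. Both single-sample lists placed the same peak near their tops, 80 of 777 in replicate 1 and 46 of 1050 in replicate 2. Its score was 1000 in each list, the highest value of a scale made from the irreproducible discovery rate, or IDR (low where the rank of a peak agrees between compared lists).

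Read against the printed sequence, the main summit fell on base 154, counted from 1 at its 5′ end, between the heat shock elements. It was 115 bp after the end of the first element and 27 bp before the start of the second. The summits of the samples lay nearby, 45 bp before the second element in replicate 1 and 25 bp before it in replicate 2. At 220 bp the main peak was narrower than the usual width of 320 bp, as were 180 of the 1705 peaks. In the single samples it was 94 bp and 179 bp wide, against usual widths of 290 bp and 284 bp. The second element lies at chrV:1805169-1805181 and spans the annotated 5′ end of hsp-16.41, whose coding sequence starts 93 bp further on.

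**Figure D1:**
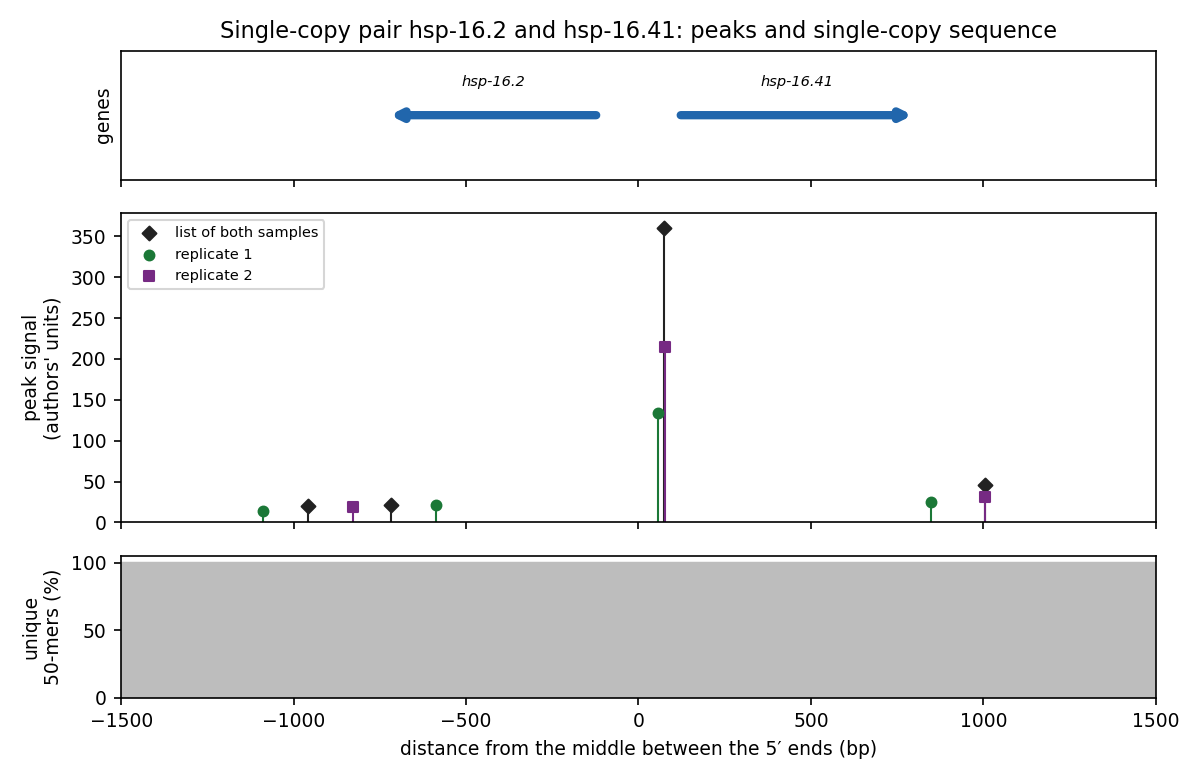
Genes, ranked peaks and single-copy sequence around hsp-16.2 and hsp-16.41, against distance in bp from the middle between their 5′ ends. Stems give the signal (authors' units) of each peak within 1000 bp of either gene in the list of both samples, replicate 1 and replicate 2, and the lower panel the percentage of 50-mers found once in the genome. All 3 lists put their highest peak between the genes (360, 134 and 215), where every 50-mer is single-copy.

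A further 4 hsp-16 genes lie in an inverted repeat on chromosome V, in which each arm carries a divergent pair and an snRNA gene. The arms span chrV:9086851-9088741 (hsp-16.1, hsp-16.48 and snRNA gene T27E4.11) and chrV:9089156-9091046 (hsp-16.49, hsp-16.11 and T27E4.10). Each is 1891 bp long, they differ at 1 base, within the snRNA genes, and 414 bp of spacer separates them. Coding sequences of hsp-16.1 and hsp-16.11 were identical (100% of 435 bp), as were those of hsp-16.48 and hsp-16.49 (100% of 429 bp). Their nearest single-copy relatives were less alike. For hsp-16.48 with hsp-16.41 the identity was 92.1% (395 of 429 bp). For hsp-16.1 with hsp-16.2 it was 78.1% (396 of 507 aligned columns). The annotated coding sequence of hsp-16.2 is longer, at 507 bp against 435 bp, and columns without an hsp-16.1 base counted as differences. The 78.1% therefore includes this difference in length and cannot be compared directly with the 92.1%.

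None of the peaks in the list of both samples had its summit inside an arm, even in the ranked list, which carries no threshold. The arms together cover 3782 bp, and the ranked list held 0.983 summits per kb over the genome. Replicate 1 had 1 ranked summit in an arm, 13 bp inside its outer edge, and replicate 2 also had 1, 22 bp inside an outer edge. Between hsp-16.1 and hsp-16.48 (348 bp) and between hsp-16.49 and hsp-16.11 (310 bp), no ranked summit was present in the list of both samples or in either replicate, whereas the 220 bp between hsp-16.2 and hsp-16.41 held 1 in each of the 3. The 348 bp and 310 bp differ through the annotated 5′ ends of hsp-16.1 and hsp-16.11, at 0 bp and 38 bp before the coding start.

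The lack of summits moved with copy number. Of all 50-mers in either duplicated promoter 0% occurred once in the genome, at 2 copies each, and the value was also 0% for 36-mers and 100-mers. In the hsp-16.2/hsp-16.41 promoter 100% were single-copy at each length. Over the whole arms the share was 0.543% on the left and 0% on the right, and in the spacer it was 100%. How reads that match both arms were treated is not given in the sources used here, and the part of copy number in these values was not tested.

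The 3 main peaks of the locus had their summits outside the arms, the highest of them in the spacer and the others just beyond the outer edges. The peak counted for hsp-16.48 and hsp-16.49, chrV:9088789-9089108, had its summit at 9088949 in the spacer, 0.5 bp from the middle between the arms and beyond the 3′ ends of both genes. This lay 818 bp and 817 bp downstream of their 5′ ends. Its signal was 44.7 in replicate 1 and 78.6 in replicate 2, a mean of 61.6 ± 24.0 (SD, n = 2), and 144 in the main list, where it ranked 383 of 1705. Every 50-mer under it was single-copy. The peak did not pass the threshold in replicate 1 alone and did so in replicate 2.

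The peak counted for hsp-16.1, chrV:9086659-9086978, had its summit at 9086819, 963 bp downstream of the 5′ end and 32 bp outside the left arm. It was 39 bp from snRNA gene T27E4.11, and its main-list signal of 74.9 ranked 1456 of 1705, with a score of 925. Replicate 1 gave 37.8 at 918 bp downstream, whereas the replicate 2 summit, with a signal of 45.7, was 1048 bp away and so just outside the window. The replicate 1 peak, with a score of 200, did not pass the threshold, so hsp-16.1 had no thresholded peak within the window in either sample alone.

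Its identical copy hsp-16.11 had no main peak within 1000 bp. A main peak with a signal of 71.4 and a score of 881 lay 1037 bp downstream of its 5′ end, just outside the window, 68 bp beyond the right arm and 75 bp from snRNA gene T27E4.10. Within the window its highest ranked signal was 11.7 in replicate 1 and 52.4 in replicate 2, a mean of 32.0 ± 28.8 (SD, n = 2). The samples were thus far apart, by a ratio of 4.48. That peak sat in the spacer, 947 bp upstream of hsp-16.11 in replicate 2, where it passed the threshold. Another replicate 2 peak in the window passed it too, 947 bp downstream, with a signal of 50.6, a score of 886 and its summit inside T27E4.10. The difference between the copies hsp-16.1 and hsp-16.11 in the main list is therefore one of summit distances of 963 bp and 1037 bp. Those distances also depend on the annotation. The annotated 5′ end lies 0 bp before the coding start in hsp-16.1 and 38 bp before it in hsp-16.11, so they start from unlike points. How MDT-29 lay over the duplicated promoters cannot be told from summits alone.

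**Figure D2:**
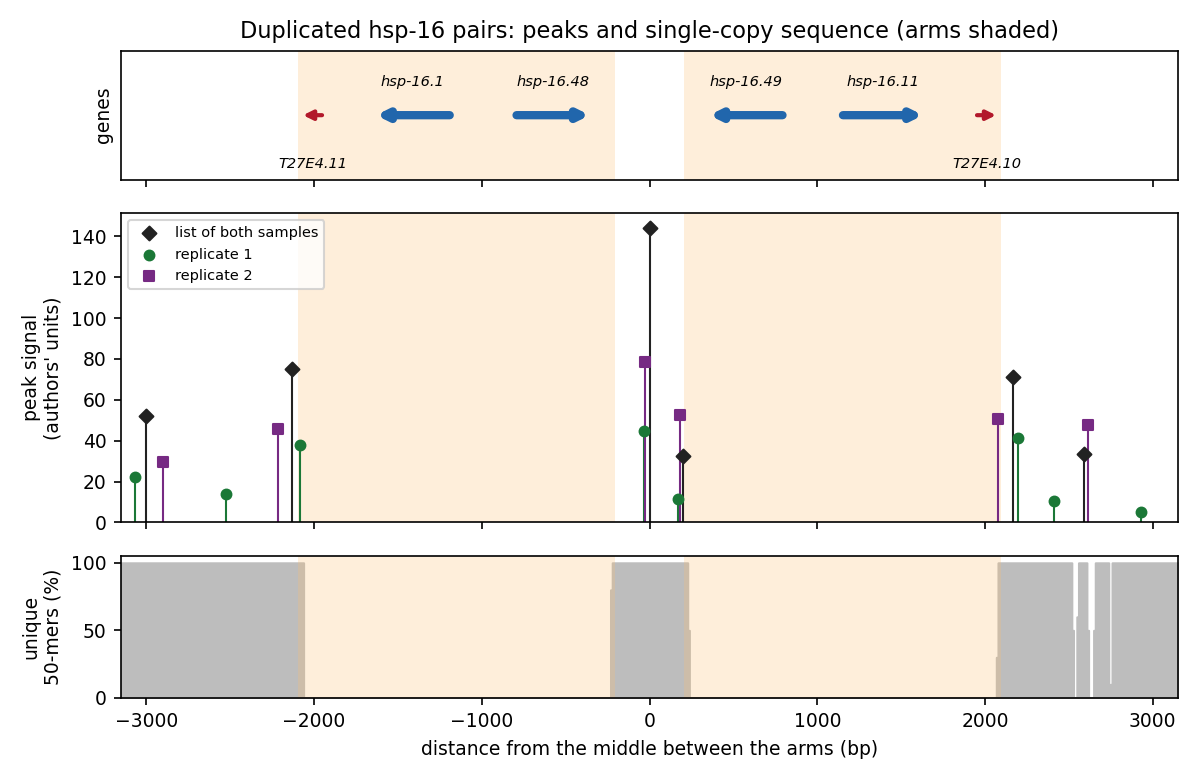
Genes, ranked peaks and single-copy sequence at the inverted repeat, against distance in bp from the middle between the arms (shaded); snRNA genes are the small red arrows. Stems give the signal (authors' units) in the list of both samples and in each replicate, and the lower panel the percentage of 50-mers found once in the genome. Peaks stand in the spacer (144 in the list of both samples) and at the outer edges (74.9 and 71.4), and the arms hold no summit beyond 22 bp from an edge.

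Each of the 4 members outside the hsp-16 class had a lower signal in the list of both samples than the hsp-16.2/hsp-16.41 peak and the spacer peak, or no peak there. The classes did not separate, since in that list hsp-12.3 was above hsp-16.1 and hsp-16.11, and hsp-25 and hsp-43 were above hsp-16.11. For hsp-12.3 the main peak, chrIV:9444459-9444778, had its summit at 9444619, 888 bp downstream of the 5′ end and beyond the 3′ end of the gene. The summit was 23 bp from an snRNA gene, F38E11.11, and 71.2% of the 50-mers under the peak were single-copy, the rest having up to 10 copies. Signal there was 119 in the main list (rank 572 of 1705). The highest ranked signal within 1000 bp of hsp-12.3 was 39.7 in replicate 1, at 640 bp downstream, and 93.6 in replicate 2, at 901 bp. These are separate places, so the mean of 66.6 ± 38.1 (SD, n = 2) joins different peaks.

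The remaining 3 had no main peak. At hsp-25, which has 4 annotated 5′ ends, the highest ranked signal was 34.4 in replicate 1 and 38.3 in replicate 2. These are different peaks, with summits at chromosome X positions 6037918 and 6039392, 217 bp and 156 bp upstream of different 5′ ends, so the mean of 36.3 ± 2.74 (SD, n = 2) joins separate places. At the site of the replicate 1 peak, replicate 2 had a signal of 30.1 with its summit at 6037916. In the ranked list of both samples the highest signal was 66.9, at the same site, and its score of 757 was under the 830 that was the lowest in the thresholded lists. At hsp-43 the values were 28.9 and 35.4 (32.2 ± 4.59, SD, n = 2), from different peaks at 252 bp and 842 bp upstream. Its signal in the list of both samples was 52.3 with a score of 273. The DAF-16 target hsp-12.6 had no ranked peak within 1000 bp in replicate 1 or in the list of both samples, and 1 in replicate 2 with a signal of 25.2, at 340 bp downstream. Of all protein-coding genes 76.4% had a ranked peak in the list of both samples, as did 9 of the 10 members (6 of 6 hsp-16 genes and 3 of 4 others).

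**Figure D3:**
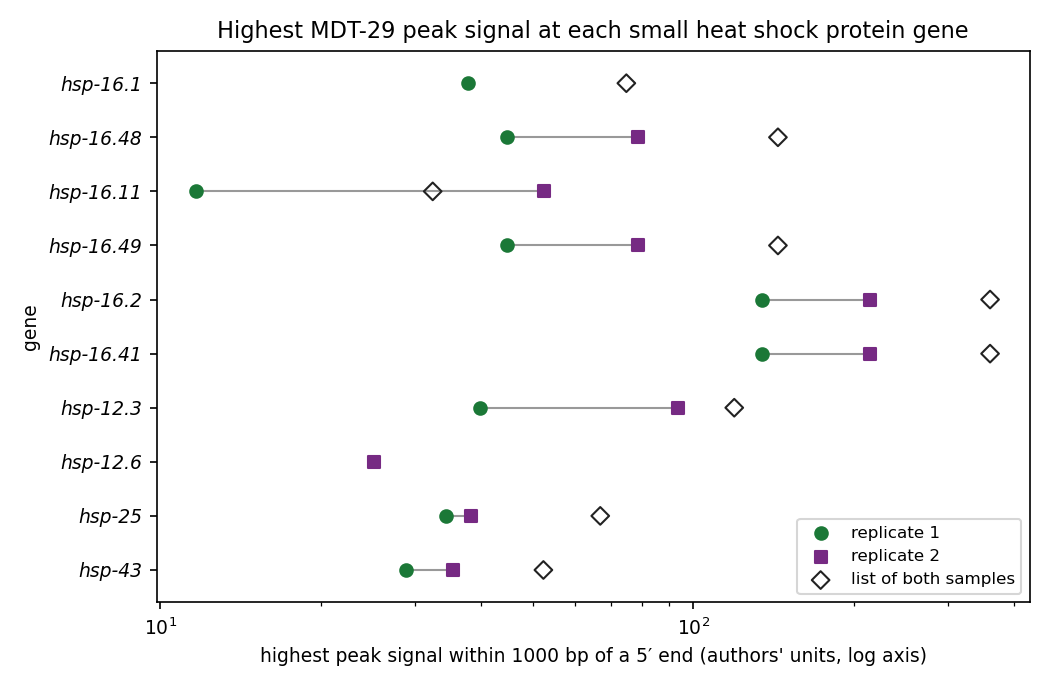
Highest peak signal (authors' units, log axis) within 1000 bp of a 5′ end of each gene, in the ranked lists of replicate 1, replicate 2 and both samples; lines join the replicates, whose highest peaks lie at different places for hsp-12.3, hsp-25 and hsp-43. Genes that share a peak share its values, and hsp-16.2 and hsp-16.41 (134 and 215) lie above all other members in both replicates.

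By mean of the samples, hsp-16.2 and hsp-16.41 (175) stood first, followed by hsp-12.3 (66.6), hsp-16.48 and hsp-16.49 (61.6), hsp-25 (36.3), hsp-43 (32.2) and hsp-16.11 (32.0). The lower value of the first pair, 134, was above the higher value of hsp-12.3, 93.6. The ranges of hsp-12.3 and of hsp-16.48 with hsp-16.49 overlapped, as did those of hsp-25, hsp-43 and hsp-16.11. Between hsp-16.48 with hsp-16.49 and hsp-25 the samples did not overlap, though the means differed by about the SD of the former. For hsp-16.1 and hsp-12.6 only a single sample gave a value.

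Among the 15257 protein-coding genes with a ranked peak in the list of both samples, the signal at hsp-16.2 and hsp-16.41 was above that of 99.7%. The corresponding shares were 98.1% for hsp-16.48 and hsp-16.49, 97.3% for hsp-12.3, 92.9% for hsp-16.1, 90.6% for hsp-25, 80.6% for hsp-43 and 39.2% for hsp-16.11. With several annotated 5′ ends, hsp-25 and hsp-43 took the highest of 8 and 4 ranked peaks, against a median of 2 peaks over all genes. For hsp-16.11 the samples were far apart, with 12.32% of genes lower in replicate 1 and 95.0% in replicate 2. The median highest signal was 144 over 6 hsp-16 genes, 66.9 over the 3 others with a peak and 36.3 over all genes with one. In replicate 1 the medians, over as many members, were 44.7, 34.4 and 19.7. In replicate 2 they were 78.6 over 5 hsp-16 genes, 36.8 over the 4 others and 22.9 over all genes with a peak. The hsp-16 medians are those of the spacer peak, since pairs share peaks, and the 66.9 of the others is the hsp-25 value.

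**Figure D4:**
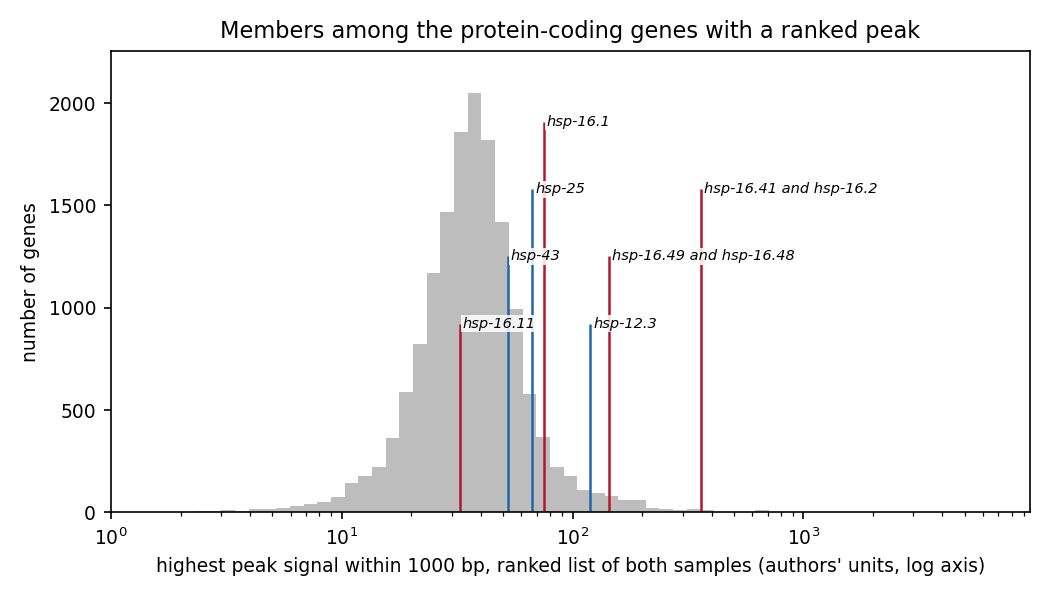
Number of protein-coding genes by highest peak signal within 1000 bp in the ranked list of both samples (grey bars; log axis, authors' units), with the members marked as red (hsp-16) or blue (other) lines whose heights carry no value. The hsp-16.2 and hsp-16.41 line (360) lies in the far right tail, and hsp-16.11 (32.4) is below the median of 36.3 in this list.

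Window and list changed the count of members. With summits within 250 bp, 2 of the 10 genes kept a main peak (2.12% of all genes), and within 500 bp again 2 (3.57%). In both cases the genes were hsp-16.2 and hsp-16.41. Counting only summits upstream of the 5′ end also left those 2 (3.98%). Within 2000 bp there were 7 (7.88%), with hsp-16.11 added, and 7 also when any overlap of the peak with the 1000 bp window counted (5.59%).

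Replicate 1 alone gave 2 genes with a thresholded peak (2.51% of all genes), hsp-16.2 and hsp-16.41. Replicate 2 alone gave 6 (3.40%), but with hsp-16.11 in place of hsp-16.1. The conservative list gave the same 6 genes as the main list (5.11%). At a global IDR of 0.001, 3 genes remained, hsp-16.2, hsp-16.41 and hsp-12.3 (2.43%). After removal of peaks within 250 bp of snRNA, tRNA and snoRNA genes, 4 remained, hsp-16.2, hsp-16.41, hsp-16.48 and hsp-16.49 (4.27%). The part of the snRNA genes in the peaks of hsp-16.1 and hsp-12.3 was not tested.

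Heat shock elements were found upstream of the hsp-16 genes and, in the nearest 300 bp, of no other member. For all motifs, upstream was counted from the most upstream 5′ end alone. The further annotated 5′ ends of hsp-25 (4 in all), hsp-43 (2 in all) and hsp-16.2 (2 in all) were not searched separately. The 2-unit element TTCNNGAA, which reads the same on both strands, was present in the 300 bp upstream of 6 of 6 hsp-16 genes, with 2 matches each, and of 0 of the 4 others. It was present in 18.0% of such regions of all protein-coding genes. An element of 3 units is TTCNNGAA followed directly by NNTTC, read on either strand and so overlapping the shorter forms. It was found upstream of all 6 hsp-16 genes, against 1.92% of all genes. Each had 2 such elements within 300 bp except hsp-16.41 with 1, because its other element spans the annotated 5′ end. Partners of a pair draw their elements from the same DNA, so the 6 genes rest on 3 stretches of DNA. Of these stretches, 2 are identical copies over 223 bp. Within 500 bp, hsp-12.6 also had a TTCNNGAA match, where 29.1% of all genes did. The other 2-unit form, GAANNTTC, was found in 19.0% of 300 bp regions of all genes, and in this set in the hsp-16 genes. Within 500 bp it was also present upstream of hsp-12.6 and hsp-43, where 29.8% of all genes had a match.

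Under the peaks the picture was narrower. Within 150 bp of the 4 main summits, a TTCNNGAA match was present under the hsp-16.2/hsp-16.41 peak, with 2 matches, and not under the spacer peak, the hsp-16.1 edge peak or the hsp-12.3 peak. Of all 1705 main peaks 19.0% had such a match and 6.74% a 3-unit element. The TATA box letters TATAAA were present, on either strand, within 300 bp upstream of all 6 hsp-16 genes, hsp-25 and hsp-43. Of all genes 39.6% had a match. Each hsp-16 pair held 1 match, counted for both partners. Its middle lay 65.5, 27.5 and 39.5 bp upstream of hsp-16.1, hsp-16.11 and hsp-16.2, on their strand. For hsp-16.48, hsp-16.49 and hsp-16.41 it was on the opposite strand, 283.5, 283.5 and 181.5 bp upstream. The hsp-25 matches were also on the opposite strand, and the hsp-43 match was on its own strand, 225.5 bp upstream. The matches of hsp-16.1 and hsp-16.11 lie in identical DNA. Their distances differ because the annotated 5′ ends lie 0 bp and 38 bp before the coding start. Only the exact letters TATAAA were searched, so other forms of the box were not counted. Neither GTAAACA, the DAF-16 element (5.01% of all genes), nor GGGTGTC, an element found near heat shock elements (1.23%), was matched upstream of any member within 300 bp on either strand.

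**Figure D5:**
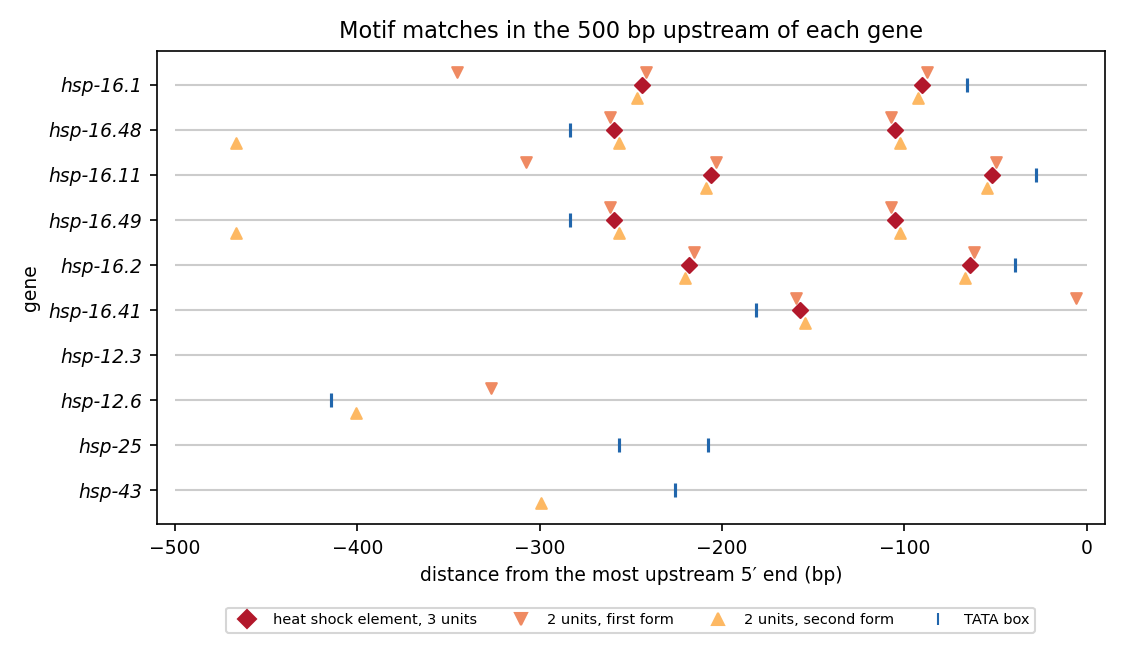
Positions of motif matches in the 500 bp upstream of each gene, in bp from its most upstream annotated 5′ end. Red diamonds are 3-unit heat shock elements, triangles the 2-unit forms and blue bars the TATA box letters TATAAA on either strand. All 6 hsp-16 genes carry 3-unit elements, 2 each except hsp-16.41 with 1, and none of the other 4 genes does in this region.

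Of 8 further small heat shock protein genes, 2 had a main peak within 1000 bp, where 5.11% of all protein-coding genes had one. These were F08H9.3 and F08H9.4, named hsp-16.20 and hsp-16.21 in RefSeq. They share 1 peak, with a signal of 88.0 (42.0 in replicate 1 and 47.3 in replicate 2). Its summit lay 31 bp downstream of the F08H9.3 5′ end and 589 bp downstream of that of F08H9.4. Heat shock factor HSF-1 and its regulators HSB-1, DDL-1 and DDL-2 had none, 0 of 4 genes. Beside the 5.11% of all genes, a count of 0 among 4 says little. All 3 inducible Hsp70 genes, which respond to HSF-1, had a main peak. At hsp-70 the signal was 214 (88.1 in replicate 1 and 124 in replicate 2), 106 bp upstream. F44E5.4 and F44E5.5, a divergent pair like the hsp-16 genes, shared a peak of 4953 (2122 in replicate 1 and 2807 in replicate 2), above the 360 of hsp-16.2 and hsp-16.41.

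The protein-coding genes outside these lists with the main signal nearest to that of hsp-16.2 and hsp-16.41 were ins-13 (357), C46C2.7 (373), srh-70 and ceh-99, which share a peak (344), and sec-61.G (343). Their summits lay from 961 bp upstream to 844 bp downstream of the 5′ ends.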

How the data were processed

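The deposited peak lists of the 2 samples were used: a main and a conservative list from both samples and 1 list per sample, each thresholded and ranked (8 lists). The authors deposited a signal per peak, whose scaling between samples is not known, and a score, a scaled IDR capped at 1000. For the threshold of 0.001, the −log10 of the IDR in the deposited ranked lists was used. Signals of the compared lists (4 columns), whose samples are not named, were not used. Per the labels the assembly was ce11. The aligner, peak caller and read depth are not given in the sources used here, so no counting interval was computed. No sample stood apart beyond the values given.

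Summits were set against transcript 5′ ends of Ensembl release 115 (WBcel235). That annotation repeats symbols for the hsp-16.11 and hsp-16.49 copies, so these were taken by gene ID with RefSeq names. Sequences came from the RefSeq genome. The repeat was found with blastn 2.17.0, and k-mers and motifs were counted in Python 3.11.15 on both strands and tested on simulated data. The members and lists were chosen with earlier results of these data known. Named genes were all members, the listed genes with a main peak, and the 5 genes nearest in signal to the highest hsp-16 member.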

Additional observations from a re-analysis of the deposited data

How the results depend on the processing

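The count of 6 members with a main peak (5 hsp-16 and 1 other) fell to 2 (2 hsp-16 and 0 others) with summits within 250 bp, within 500 bp or, added after seeing the data, upstream only. It was 3 (2 hsp-16) at a global IDR of 0.001. In the ranked list the other members numbered 3, and away from small RNA genes, also added after seeing the data, 0. Single-sample lists ranged from 2 to 6 for all members, 2 to 5 for hsp-16 and 0 to 1 for the others. Of the 33 alternatives for these counts, 17 stayed within 1.5 times.

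In the regions searched first (150 bp either side of a main summit or, without a peak, 300 bp upstream), 3 members held TTCNNGAA (hsp-16.2, hsp-16.41 and hsp-16.11). The number was 7 with 500 bp upstream and 6 with 300 bp upstream of every member, the latter added after seeing the data. Unique k-mer shares between the divergent genes were the same at 36 and 100 bases. Under the peaks of hsp-16.1 and hsp-12.3 they moved with the length, from 70.9% and 67.7% at 36 bases to 91.4% and 87.8% at 100, and in the right arm from 0% to 0.558%. Taking the nearest peak gave lower mean signals for hsp-16.49 (32.0), hsp-12.3 (23.3) and hsp-25 (24.5). Leaving out a sample leaves the value of the other, as printed for each gene, and says nothing of stability with 2 samples. The causes were not tested, beyond the narrower windows counting fewer peaks.

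No paired analysis was possible because there was 1 group. Depth is unknown, and with 2 samples an SD is a rough guide.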
